A study of Mus musculus with 6 samples.

Results

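The genes described here are 10 genes of mast cells and basophils, the cells that carry the high-affinity receptor for IgE and store histamine and proteases in their granules. They were chosen by name, as Fcer1a, Fcer1g, Ms4a2, Prss34, Mcpt8, Cpa3, Hdc, Il1rl1, Gzmb and Srgn, and all 10 are among the 23997 gene symbols of the deposited table. RNA-seq was done on bone marrow cells of C57BL/6 mice aged 6 to 8 weeks that lacked lineage markers and carried Sca-1 and c-Kit (LSK cells), the fraction that holds stem cells and multipotent progenitors. There were 3 Mirc11-/- libraries, from mice without the Mirc11 locus and its miRNAs miR-23a, miR-27a and miR-24-2, and 3 wildtype libraries. Each RNA preparation pooled cells of 3 to 4 mice, and p-values therefore measure the spread between these pools. The labels give no treatment for either genotype. The sort gate is LSK in the labels and the methods, while one legend of the study gives Lin-Sca1-cKit+ for the sequenced cells.

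IgE binds the alpha chain of its receptor, the beta and gamma chains pass the signal on, and cross-linking releases the granules. In the granules, proteases and histamine are held by the sulfated sugar chains of serglycin. IL-33 acts on the same cells through the receptor ST2. Mast cells and basophils arise in bone marrow from progenitors in which GATA factors act together with myeloid factors, and several of the 10 genes are read at low level in such progenitors before any granule forms. Srgn, Fcer1g and Hdc are also used by other myeloid cells, and Gzmb is best known from cytotoxic lymphocytes, so that a read of these genes does not by itself mark a mast cell or a basophil.

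Values are normalized read counts: the whole reads of a gene, scaled by a factor for each library that makes 1 read worth 0.946 to 1.04. Reads in genes came to 15029379 to 17051541 in Mirc11-/- libraries, against 15772826 to 16250826 in wildtype libraries. The miRNA genes of the deleted locus gave 0 reads in the Mirc11-/- libraries, where the wildtype libraries held 51 reads on Mir23a, 54 on Mir27a and 73 on Mir24-2, so that with a floor of 3 reads for the 3 libraries together they were lower by at least 17-, 18- and 24.3-fold. Of the 15662 genes with a mean value of at least 1, limma called 5 at an adjusted p under 0.05, which is 0.0319%. All 10 mast cell and basophil genes were among the genes tested. In bulk RNA, fewer cells of a type and less RNA per cell cannot be told apart.

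Of the 10 genes, 8 had a positive log2 fold change, Mirc11-/- minus wildtype on log2(value + 1), against 50.5% of all genes tested. None of the 10 passed the threshold over all genes by limma, and edgeR, which called 0.0255% of genes, and DESeq2, which called 0.924%, also called 0. At an unadjusted p under 0.05 by limma, 3 of the 10 were higher in Mirc11-/- libraries (Fcer1a, Prss34 and Il1rl1) and 0 lower, where 4.15% of all genes were higher and 4.09% lower. The same 3 genes had a log2 fold change of at least 1, as did 2.73% of all genes. For Fcer1a, 1 of the 10, all Mirc11-/- values were above all wildtype values, as for 6.42% of all genes. The median log2 fold change of the 10 was 0.34, beside 0.00246 over all genes tested. With 3 libraries a genotype, the smallest p that an exact permutation test allows is 0.1.

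**Figure D1:**
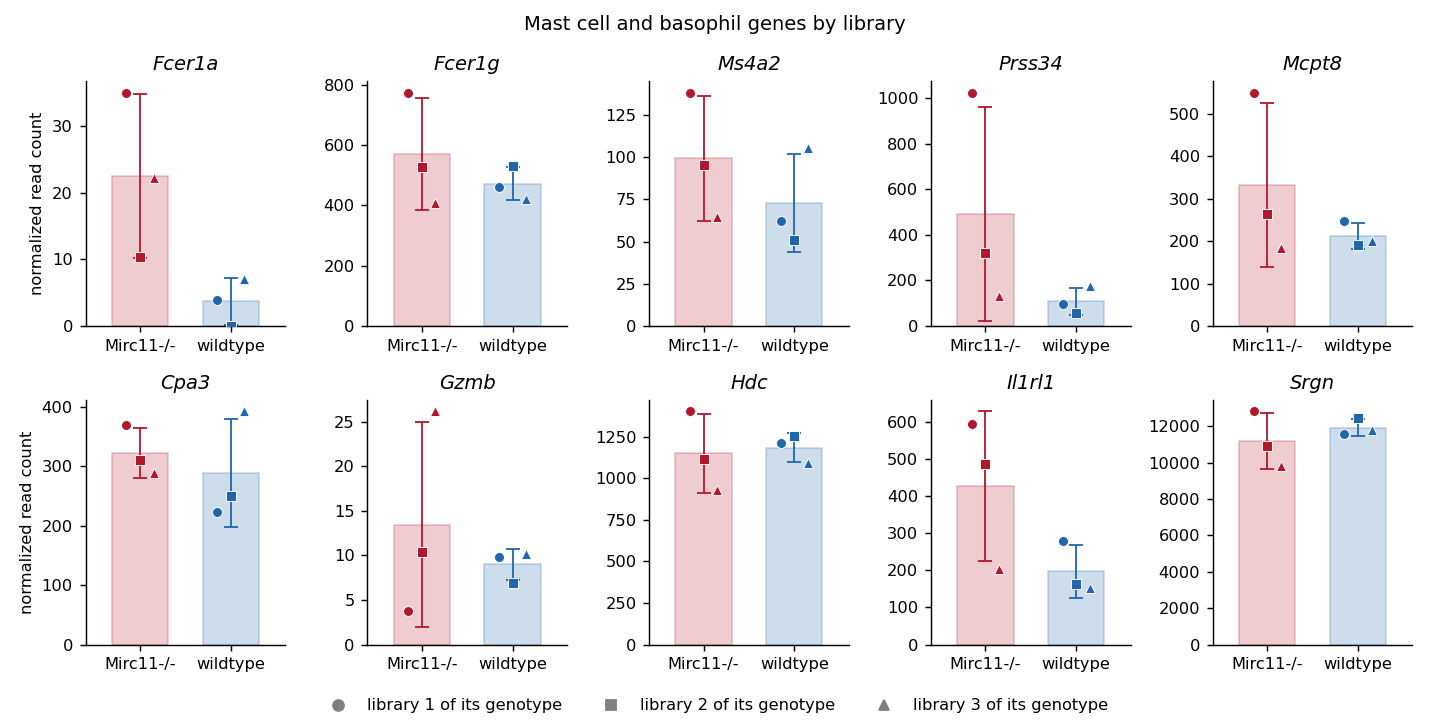
Normalized read count (vertical axes, each from 0) of the 10 genes in the 3 Mirc11-/- libraries (red, left) and the 3 wildtype libraries (blue, right); bars give the mean, error bars the SD (n = 3), and marker shape the library number. The 3 Mirc11-/- values of Fcer1a, from 10.4 to 35.0, lie above the 3 wildtype values, from 0 to 7.09, and for the other 9 genes the groups overlap.

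The alpha chain of the IgE receptor, which binds IgE itself, showed the widest difference of the 10 genes. Fcer1a (chr1:173221269-173227232, minus strand, RefSeq annotation of GRCm38.p6) had 35.0, 10.4 and 22.1 normalized counts in Mirc11-/- libraries 1, 2 and 3, against 3.94, 0 and 7.09 in wildtype libraries 1, 2 and 3. The lowest Mirc11-/- value was above the highest wildtype value. The reads behind these values were few, 69 over the Mirc11-/- libraries and 11 over the wildtype libraries, and the exact 95% Poisson intervals of the nearest pair, 10 reads (4.8 to 18.4) in Mirc11-/- library 2 and 7 reads (2.81 to 14.4) in wildtype library 3, overlap. Such intervals cover counting error only. The 0 of wildtype library 2 allows up to 3 reads, or 0.185 CPM. The log2 fold change was 2.63 (SE 0.79, 95% interval 0.84 to 4.42, unadjusted p = 0.00889, adjusted p = 0.459 by limma), and the exact two-sided permutation p was 0.1, the smallest the design allows. Without wildtype library 2 it was 1.74, and with a pseudocount of 0.1 in place of 1 it was 3.82.

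The gamma chain, Fcer1g (chr1:171229572-171234349, minus strand), carries the signalling motif of the receptor and serves several IgG receptors as well. It had 774, 528 and 410 normalized counts in Mirc11-/- libraries and 462, 532 and 423 in wildtype libraries. Only Mirc11-/- library 1 stood above all wildtype libraries, and library 3 was below all of them. Its log2 fold change was 0.23 (SE 0.21, adjusted p = 0.781 by limma), with a 95% interval from -0.25 to 0.71. The beta chain, Ms4a2 (chr19:11615517-11623790, minus strand), which amplifies the signal, had 138, 95.5 and 64.4 normalized counts in Mirc11-/- libraries and 62.1, 50.6 and 105 in wildtype libraries. Again Mirc11-/- library 1 was the highest of the 6, while libraries 2 and 3 lay within the wildtype range. Its log2 fold change was 0.45 (SE 0.35, adjusted p = 0.736 by limma). Per kilobase of exon, the gamma chain exceeded the beta chain 21.1-, 20.8- and 23.9-fold in Mirc11-/- libraries and 27.9-, 39.5- and 15.1-fold in wildtype libraries, so the excess of gamma over beta was of the same order in both genotypes, and their ranges overlap.

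Among the granule proteases, Prss34 differed most between the genotypes. Prss34 (chr17:25298394-25300168, plus strand) encodes a tryptase that is made mainly by basophils. It had 1023, 321 and 133 normalized counts in Mirc11-/- libraries and 95.7, 58.6 and 174 in wildtype libraries. Libraries 1 and 2 of Mirc11-/- were above every wildtype library and library 3 was within their range, and the highest Mirc11-/- value was 7.70 times the lowest, against 2.98 times among wildtype libraries. On the log2 scale the fold change was 1.82 (SE 0.66, 95% interval 0.32 to 3.32, unadjusted p = 0.0229, adjusted p = 0.532 by limma, exact permutation p = 0.2). Leaving out Mirc11-/- library 1 gave 1.05.

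Mcpt8 (chr14:56082163-56085499, minus strand) encodes a serine protease that is a marker of mouse basophils in spite of its mast cell name. It had 550, 265 and 183 normalized counts in Mirc11-/- libraries and 248, 192 and 200 in wildtype libraries. As for Prss34, Mirc11-/- libraries 1 and 2 were above all wildtype libraries, library 2 by little, and library 3 was below them. The log2 fold change was 0.50 (SE 0.34, adjusted p = 0.697 by limma), and it was 0.06 without Mirc11-/- library 1. The ratio of Prss34 to Mcpt8 was 1.86, 1.21 and 0.725 in Mirc11-/- libraries and 0.386, 0.306 and 0.873 in wildtype libraries. Both basophil proteases were thus highest in the same library, but in unequal measure.

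Cpa3 (chr3:20215616-20242209, minus strand), the carboxypeptidase of mast cell granules, had 369, 309 and 288 normalized counts in Mirc11-/- libraries and 223, 250 and 392 in wildtype libraries. Its highest value was in wildtype library 3, and the log2 fold change was 0.20 (SE 0.21, 95% interval -0.29 to 0.68, adjusted p = 0.810 by limma). Gzmb (chr14:56258836-56262334, minus strand), granzyme B, had 3.78, 10.4 and 26.2 normalized counts in Mirc11-/- libraries and 9.86, 6.95 and 10.1 in wildtype libraries. It was the one gene of the 10 whose highest value was in Mirc11-/- library 3 and whose lowest was in Mirc11-/- library 1. The reads were 4, 10 and 26 in Mirc11-/- and 10, 7 and 10 in wildtype libraries, and the intervals of the extremes, 1.09 to 10.2 reads in Mirc11-/- library 1 and 17 to 38.1 in library 3, do not overlap. For Gzmb the log2 difference was 0.21 (SE 0.61, limma adjusted p = 0.946), against -0.42 without Mirc11-/- library 3.

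Hdc (chr2:126593659-126624025, minus strand) encodes histidine decarboxylase, the enzyme that makes histamine. It had 1403, 1117 and 930 normalized counts in Mirc11-/- libraries and 1209, 1254 and 1088 in wildtype libraries. The wildtype values lay inside the spread of the Mirc11-/- values. The log2 fold change was -0.06 (SE 0.14, 95% interval -0.38 to 0.27, adjusted p = 0.931 by limma), so that a change of more than 0.38 on the log2 scale lies outside the interval in either direction.

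Il1rl1 (chr1:40404864-40465418, plus strand) encodes ST2, the receptor for IL-33 on mast cells, basophils and group 2 innate lymphoid cells. It had 593, 486 and 203 normalized counts in Mirc11-/- libraries and 278, 162 and 151 in wildtype libraries. Libraries 1 and 2 of Mirc11-/- were above all wildtype libraries, and library 3 was within the wildtype range, below wildtype library 1. The log2 fold change was 1.03 (SE 0.39, 95% interval 0.16 to 1.91, unadjusted p = 0.0259, adjusted p = 0.546 by limma, exact permutation p = 0.2). Markers of group 2 innate lymphoid cells went the other way: all 5 tested had a negative log2 fold change, 2 of them at an unadjusted p under 0.05 by limma, with summed values from 576 to 846 in Mirc11-/- libraries and from 806 to 1027 in wildtype libraries, and Il5, their signature cytokine, had 3 reads in all. The study's supplement lists Il1rl1 among genes downstream of TNF and of IL-6, with a negative log fold change in Mirc11-/- LSK cells. The p-value it lists for this gene is above 0.05. That sign is opposite to the one found here, where Il1rl1 did not pass over all genes either, and the cause was not tested.

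Srgn (chr10:62493833-62527445, minus strand) encodes serglycin, the proteoglycan core of secretory granules in most blood cells. It had 12824, 10925 and 9805 normalized counts in Mirc11-/- libraries and 11551, 12436 and 11783 in wildtype libraries, and the Mirc11-/- values again spread to both sides of the wildtype values. Its difference on the log2 scale was -0.10 (SE 0.11, limma adjusted p = 0.807). Srgn alone made up 72.4% to 81.3% of the summed value of the 10 genes in Mirc11-/- libraries and 81.7% to 83.2% in wildtype libraries.

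**Figure D2:**
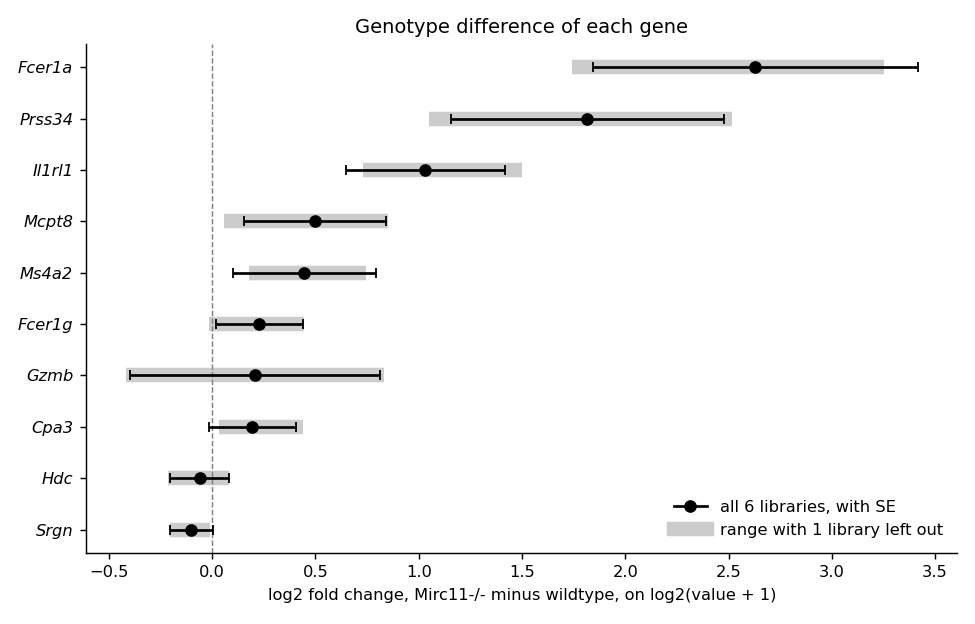
Log2 fold change, Mirc11-/- minus wildtype, of the 10 genes (horizontal axis, on log2(value + 1)), with the SE from limma (black, all 6 libraries) and the range when each library is left out in turn (grey). Fcer1a, Prss34 and Il1rl1 stand at 2.63, 1.82 and 1.03, and the grey range crosses 0 for Fcer1g, Gzmb and Hdc.

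Most of the 10 genes ranked the Mirc11-/- libraries alike. Mirc11-/- library 1 held the highest value of the 6 libraries for 8 of them, where it did so for 25.5% of all genes tested. For 8 of the 10, all but Fcer1a and Gzmb, library 1 was above library 2 and library 2 above library 3, an order seen in 27.7% of all genes. Library 3 exceeded all wildtype libraries for 2 of the 10, Fcer1a and Gzmb (25.8% of all genes). The median difference of the 10 genes from the wildtype mean was 0.85 on the log2 scale in Mirc11-/- library 1, 0.26 in library 2 and -0.03 in library 3, and -0.19 to 0.08 in wildtype libraries. Without Mirc11-/- library 3, limma called Prss34 (log2 fold change 2.52, adjusted p = 0.0285) and Il1rl1 (1.498, adjusted p = 0.0142) higher, 2 of the 10 against 1.94% of all genes, as it did most of the erythroid markers given next, while Fcer1a (2.57, adjusted p = 0.151 by limma) did not pass. That fit drops the Mirc11-/- library with the lowest median. Without Mirc11-/- library 1 instead, Prss34 was at 1.05 and Il1rl1 at 0.73 (adjusted p = 0.711 and 0.747 by limma). With array weights, which let limma weigh the libraries by their spread, 5 of the 10 were called, Fcer1a, Ms4a2, Prss34 and Il1rl1 higher and Srgn lower, but so were 36.2% of all genes, and the estimation of the weights stopped before it converged.

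Erythroid and eosinophil markers were also high in Mirc11-/- libraries 1 and 2. All 16 erythroid markers had a positive log2 fold change (median 1.03), with summed values of 37756, 33124 and 12711 in Mirc11-/- libraries against 19339, 14230 and 12461 in wildtype libraries, and none of them was at 0. All 7 eosinophil markers in the table were positive (median 0.76), and the eosinophil granule protein genes Prg2 (2020, 2171 and 232 normalized counts in Mirc11-/- libraries, against 737, 356 and 794 in wildtype libraries) and Epx (603, 610 and 48.3, against 247, 130 and 187) showed the same split between Mirc11-/- libraries 1 and 2 and library 3. Without Mirc11-/- library 3, limma called 15 of the 16 erythroid and 4 of the 7 eosinophil markers higher. Summed monocyte markers were 17391, 11336 and 6274 in Mirc11-/- libraries and 7708 to 11074 in wildtype libraries, a sum led by F13a1, while 4 of these 7 markers had a negative log2 fold change (median -0.16) and Cd68 was lower at an unadjusted p of 0.00875 by limma. Positive log2 fold changes were found for 8 of 12 neutrophil markers (median 0.09), 7 of 8 tested megakaryocyte markers (0.26), 7 of 8 B cell markers (0.80) and 3 of 5 dendritic cell markers (0.04), and 0 of them passed by limma. The B cell marker Pax5 (wildtype mean 0.338) and the dendritic cell marker Cd209a (0.660) were tested only because of their Mirc11-/- values (means 5.79 and 7.58). By median, the B cell, megakaryocyte and neutrophil lists did not follow the order of the 10 genes: in Mirc11-/- libraries 1, 2 and 3 the median difference from the wildtype mean was -0.31, 1.48 and 1.36 for B cell markers, 0.07, 0.36 and 0.30 for megakaryocyte markers and 0.27, 0.73 and 0.57 for neutrophil markers. By sum, the neutrophil markers did follow that order, with 242170, 191140 and 147650 in Mirc11-/- libraries and 171960 to 208530 in wildtype libraries, a sum led by Mpo. Besides Mpo, the markers Elane, Prtn3, Ctsg, Mmp8 and Retnlg each ran in that order. The other neutrophil markers had their lowest Mirc11-/- value in library 1. The summed markers of LSK cells ran the other way, with 25726, 32131 and 44957 in Mirc11-/- libraries and 38524 to 45297 in wildtype libraries, and 8 of these 10 markers had a negative log2 fold change. Cd34 and Flt3, a surface mark and a cytokine receptor of early progenitors, had log2 fold changes of -0.43 (SE 0.18) and -0.49 (SE 0.22), with adjusted p-values of 0.592 and 0.597 by limma. The part of these cells in the values of the 10 genes was not tested. A further fit took the erythroid marker mean as covariate. That mean was itself high in Mirc11-/- libraries 1 and 2, as were the eosinophil markers, so the fit cannot single out erythroid cells. In that fit the log2 fold change was 2.46 for Fcer1a, 0.71 for Prss34 and 0.22 for Il1rl1 (adjusted p = 0.489, 0.684 and 0.705 by limma), that of Mcpt8 was -0.16 and that of Fcer1g was -0.13. Gzmb was at 1.19 (unadjusted p = 0.057), Hdc at -0.31 (0.0146), Srgn at -0.24 (0.028), Cpa3 at 0.15 and Ms4a2 at 0.07 by limma in the same fit, and the median of the 10 was 0.11.

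**Figure D3:**
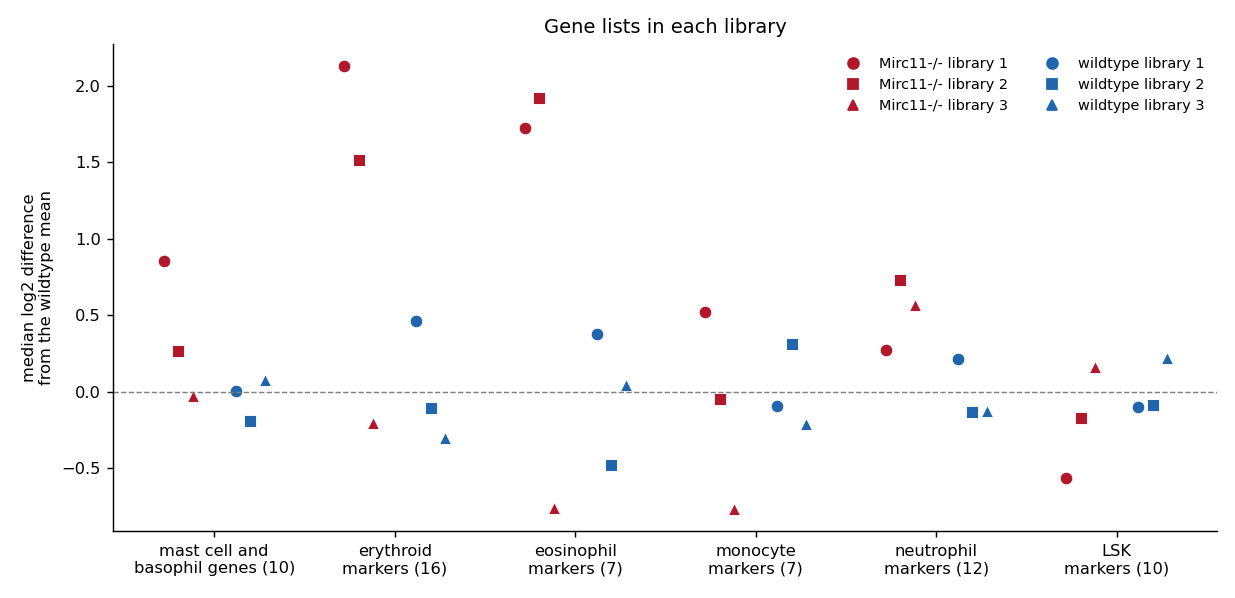
Median log2 difference from the wildtype mean (vertical axis) of the 10 mast cell and basophil genes and of 5 marker lists in each library, with Mirc11-/- libraries in red on the left of each column, wildtype libraries in blue on the right, and marker shape giving the library number; the number of genes is in brackets. The 10 genes were at 0.85, 0.26 and -0.03 in Mirc11-/- libraries 1, 2 and 3, the erythroid markers at 2.13, 1.52 and -0.20, and the LSK markers at -0.57, -0.18 and 0.16.

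Per kilobase of exon, the 10 genes spanned a wide range of levels. Srgn was the most abundant, with 6380 ± 871 normalized counts per kilobase in Mirc11-/- libraries and 6802 ± 262 in wildtype libraries (SD, n = 3 each), rank 82 of 13613 genes with an annotated length. Fcer1g (762.35 ± 248 and 631 ± 74.1) and Hdc (481 ± 99.5 and 495 ± 35.9) followed, with 87.3% and 80.5% of genes below them, and their values overlapped in Mirc11-/- but not in wildtype libraries. Mcpt8 had 398 ± 231 per kilobase in Mirc11-/- and 255 ± 36.2 in wildtype libraries, Prss34 404 ± 385 and 89.8 ± 48.4, and Cpa3 222 ± 29.0 and 199 ± 62.7. In Mirc11-/- libraries the SDs of these 3 proteases overlapped, and in wildtype libraries those of Mcpt8 and Cpa3 did, with the mean of Prss34 below both. Genes of the same library are paired, and these SDs do not use that pairing. Within libraries, the ratio of Cpa3 to Mcpt8 per kilobase was 0.387, 0.674 and 0.907 in Mirc11-/- libraries and 0.519, 0.753 and 1.13 in wildtype libraries. Il1rl1 (62.5 ± 29.5 and 28.8 ± 10.3) and Ms4a2 (35.3 ± 13.1 and 25.8 ± 10.3) overlapped in both genotypes. Fcer1a had 22.6 ± 12.3 per kilobase in Mirc11-/- and 3.69 ± 3.56 in wildtype libraries, and Gzmb, the lowest of the 10, 9.36 ± 8.01 and 6.25 ± 1.23, so that the order of these last genes by mean differed between the genotypes, with SDs that overlapped in both.

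**Figure D4:**
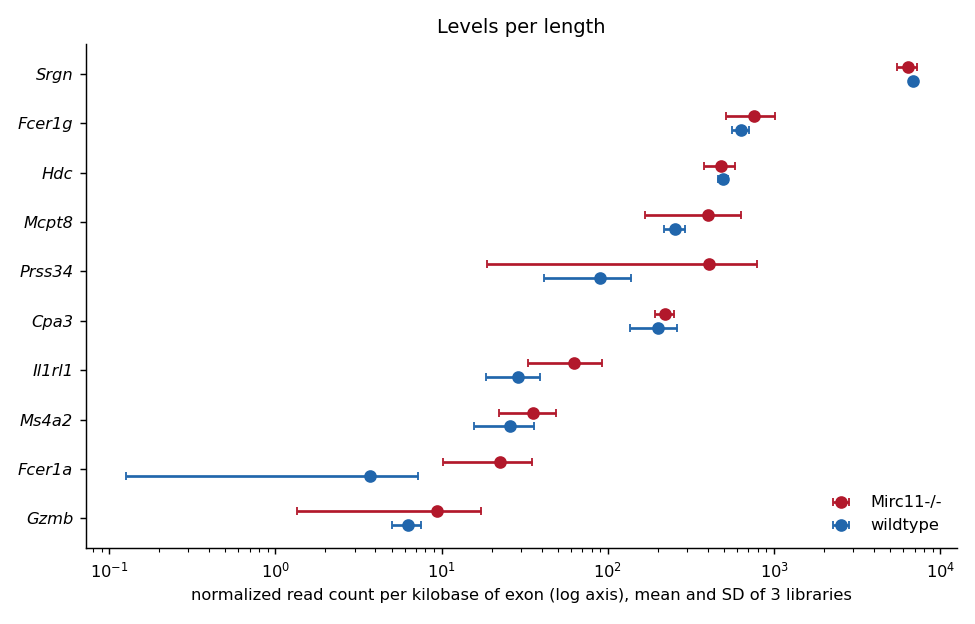
Normalized read count per kilobase of exon (horizontal log axis) of the 10 genes, mean and SD of the 3 Mirc11-/- libraries (red, upper point) and of the 3 wildtype libraries (blue, lower point). Srgn lies at 6380 and 6802, and Fcer1a at 22.6 in Mirc11-/- and 3.69 in wildtype libraries.

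Mcpt8 and Gzmb lie in the same stretch of protease genes on chromosome 14, and Prss34 lies beside the tryptase genes on chromosome 17. On chromosome 14 only the genes from Mcpt8 to Gzmb were looked at, and those beyond them were not. Between Mcpt8 and Gzmb, RefSeq places 7 further genes, 6 of them granzymes (Gzmc, Gzmd, Gzme, Gzmf, Gzmg and Gzmn), which had 0 reads in all 6 libraries. The other one, Ctsg, the cathepsin G of neutrophil granules and next to Mcpt8, was chosen for mention after its values were seen. It had 20217, 13158 and 8584 normalized counts in Mirc11-/- libraries and 13568, 14582 and 11436 in wildtype libraries, with a log2 fold change of 0.0044 (SE 0.26). Within 150 kb of Prss34, the tryptase gene Tpsb2 had 0 reads, and Tpsg1 had 4.73, 6.23 and 2.01 normalized counts in Mirc11-/- libraries and 5.92, 1.98 and 0 in wildtype libraries.

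Genes of mature mast cell granules were mostly silent. Of 14 such genes in the list, 7 had 0 reads in every library: the chymases Cma2, Mcpt4 and Mcpt9, the tryptases Tpsb2 and Tpsab1, and the mast cell receptors Mrgprb1 and Mrgprb2. A count of 0 over all 95499556 reads allows up to 3 reads, or 0.0314 CPM. Of the 4 tested, 3 had a positive log2 fold change (median 0.15), and 0 passed by limma, 0 at an unadjusted p under 0.05. Slc18a2, which loads histamine into granules, had 878, 1399 and 1411 normalized counts in Mirc11-/- libraries and 984, 867 and 1208 in wildtype libraries (log2 fold change 0.25, SE 0.19), so its values in Mirc11-/- libraries ran opposite to those of Prss34. Cd63, a membrane protein of granules, had 0.05 (SE 0.08), and the chymase Cma1, with 13 reads in all, -0.81 (SE 0.85). The 10 genes were thus read in these libraries without most of the proteases that mark mature mast cells of tissue.

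Around the receptor and its signal, 0 of the 96 genes tested in the 9 pathway lists passed over all genes by limma or edgeR. Of 14 genes of basophil surface receptors and cytokines, 6 were positive and 8 negative (median -0.11), and 1 was higher at an unadjusted p under 0.05. That was Csf2ra, a chain of the GM-CSF receptor, at 2249, 2114 and 1926 normalized counts in Mirc11-/- libraries and 1816, 1931 and 1719 in wildtype libraries (log2 fold change 0.20, SE 0.09, adjusted p = 0.597 by limma). Il4, a cytokine of basophils, had 4.73, 20.8 and 8.05 in Mirc11-/- libraries and 2.96, 3.97 and 4.05 in wildtype libraries, without overlap but with 44 reads in all (1.17, SE 0.55, adjusted p = 0.614 by limma). Il3ra, through which IL-3 drives basophil growth, had -0.20 (SE 0.12), and Kit, the receptor for stem cell factor, -0.12 (SE 0.14).

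Of 25 genes of IgE receptor signalling, 18 had a negative log2 fold change (median -0.09) and 2 were lower at an unadjusted p under 0.05, Lat2 and Plcg2. Lat2 encodes an adaptor that is phosphorylated after receptor cross-linking. It had 881, 833 and 1160 normalized counts in Mirc11-/- libraries and 1235, 1377 and 1474 in wildtype libraries, and the groups did not overlap (log2 fold change -0.52, SE 0.13, adjusted p = 0.431 by limma). Plcg2, a phospholipase of the pathway, had -0.25 (SE 0.10, adjusted p = 0.576 by limma), and the kinase gene Fyn -0.34 (SE 0.16, limma adjusted p = 0.614). Without Mirc11-/- library 3, Lat2 (adjusted p = 0.0113) and Fyn (adjusted p = 0.0259) were called lower by limma, as were 1.46% of all genes. Without Mirc11-/- library 1, neither passed (adjusted p = 0.560 for Lat2 and 0.827 for Fyn by limma). With the erythroid covariate Lat2 was at -0.29 and Fyn at -0.03. Inpp5d, a lipid phosphatase that restrains the signal, had -0.19 (SE 0.10). Of 8 tested genes of the IL-33 receptor pathway, 5 were positive (median 0.05) and 0 passed at an unadjusted p under 0.05. Irak2, a kinase below ST2, had 0.25 (SE 0.13), Traf6 0.15 (SE 0.10), Map3k7 0.06 (SE 0.07), Irak1 -0.09 (SE 0.08) and Sigirr, an inhibitory receptor, -0.26 (SE 0.17). Il33 itself had 2 reads in all.

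Among 14 transcription factors of the lineage, 10 were negative (median -0.07), but the 3 with an unadjusted p under 0.05 were higher in Mirc11-/- libraries. Zfpm1, the GATA partner FOG-1, had 2484, 2769 and 2202 normalized counts in Mirc11-/- libraries and 1850, 1720 and 1870 in wildtype libraries (log2 fold change 0.45, SE 0.10, adjusted p = 0.406 by limma). Tal1, which binds beside GATA factors, had 2637, 2933 and 2475 in Mirc11-/- libraries and 1995, 1815 and 2149 in wildtype libraries (0.43, SE 0.10, adjusted p = 0.419 by limma). For both genes the groups did not overlap, and all 3 Mirc11-/- libraries were high. Gata1 had 1289, 1244 and 571 in Mirc11-/- libraries and 809, 540 and 428 in wildtype libraries (0.76, SE 0.33, limma adjusted p = 0.592), with library 3 inside the wildtype range. Without Mirc11-/- library 3, Zfpm1 (adjusted p = 0.0150), Tal1 (0.0292) and Gata1 (0.0238) were called higher by limma, and DESeq2 on all libraries called Zfpm1 (adjusted p = 0.0225) and Tal1 (0.0313). Without Mirc11-/- library 1, none of these 3 passed by limma (adjusted p = 0.4105, 0.395 and 0.787). These factors also serve the erythroid and megakaryocyte lines, whose markers are given above, and with the erythroid covariate Gata1 was at 0.10, Zfpm1 at 0.35 and Tal1 at 0.38. Ikzf1 had -0.06 (SE 0.08) and Lmo2 -0.15 (SE 0.12). Other factors of the list showed little difference, with Gata2 at -0.055 (SE 0.25), Mitf at -0.0075 (SE 0.20) and Cebpa at -0.12 (SE 0.13).

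In the remaining lists 0 genes passed over all genes by limma. Of 8 genes of lipid mediators and histamine breakdown, 4 were positive (median -0.01), and Ptgs2, the inducible cyclooxygenase, was lower at an unadjusted p under 0.05, with 132, 107 and 118 normalized counts in Mirc11-/- libraries and 133, 230 and 274 in wildtype libraries (log2 fold change -0.77, SE 0.26, adjusted p = 0.502 by limma). Alox5, which begins leukotriene synthesis, had 0.47 (SE 0.21), its partner Alox5ap -0.10 (SE 0.07) and Ptgs1 0.07 (SE 0.11). Of 14 enzymes that build the sugar chains of serglycin and other proteoglycans, 10 were negative (median -0.06), and 1 was higher at an unadjusted p under 0.05. It was Ndst2, the sulfotransferase that mast cells need to make heparin, with 894, 933 and 776 normalized counts in Mirc11-/- libraries and 760, 667 and 720 in wildtype libraries, without overlap (0.27, SE 0.10, adjusted p = 0.550 by limma). Chsy1 had -0.22 (SE 0.13), Chst12 -0.13 (SE 0.10), Csgalnact2 -0.11 (SE 0.14) and Ext2 -0.07 (SE 0.08).

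Of the 11 genes of the granzyme list, which holds the other granzymes, perforin and the granzyme B inhibitor Serpinb9, 7 had 0 reads (the 6 named above and Gzmk) and 4 were tested, all positive (median 0.22). Prf1, perforin, had 22 reads in all (log2 fold change 1.43, SE 0.70), Gzma 18 (0.09, SE 0.81) and Gzmm 131 (0.35, SE 0.37), and Serpinb9 had 0.0032 (SE 0.19). T and NK cell markers, which bear on Gzmb, were 5 of 7 negative, and Cd3e had 3 reads in all. The positive ones were Cd3d (1.08, SE 0.72), with 17 reads in all, and Cd8a (0.77, SE 0.92), with 21. Cd8a had 0.946, 1.04 and 14.1 normalized counts in Mirc11-/- libraries and 2.96, 0 and 2.03 in wildtype libraries. Like Gzmb, it was highest in Mirc11-/- library 3. Of 5 tested receptors that share the Fcer1g chain, 2 were positive (median -0.15). Fcgr3, an IgG receptor, had 1508, 1022 and 359 normalized counts in Mirc11-/- libraries and 970, 1010 and 770 in wildtype libraries (-0.15, SE 0.43), with the same order of the Mirc11-/- libraries as Fcer1g. With the erythroid covariate Fcgr3 was at -1.07 (adjusted p = 0.0536 by limma). Fcgr1, with 45 reads in all, had 0.85 (SE 0.54), Fcgr4 -0.24 (SE 0.40), Clec4e 0.01 (SE 0.15) and Oscar, with 9 reads, -0.65 (SE 0.65).

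**Figure D5:**
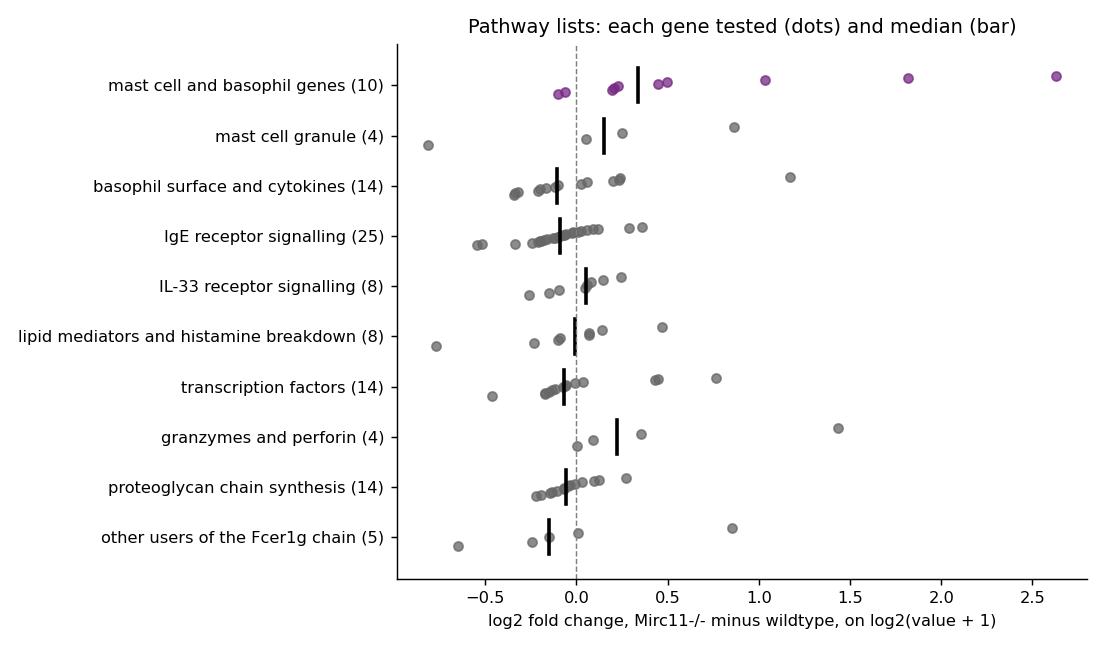
Log2 fold change, Mirc11-/- minus wildtype (horizontal axis, on log2(value + 1)), of each tested gene (dots) in the 10 mast cell and basophil genes (purple) and in 9 pathway lists (grey), with the median of each as a black bar and the number of genes in brackets. The medians run from -0.15 for the receptors sharing the Fcer1g chain to 0.34 for the 10 genes.

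The miRNAs of the deleted locus were compared with the 10 transcripts by their seeds. The study also describes a paralog cluster, Mirc22, with its own miR-23, miR-27 and miR-24 members. Their levels were not examined here. The mature 3p strands are shown because the seed, bases 2 to 8 in capitals, sets which sites a miRNA pairs with (sequences from RefSeq, GRCm38.p6, chromosome 8, plus strand). The seeds of miR-23a and miR-27a share their first 5 letters, and that of miR-24 differs from both.
mmu-miR-23a-3p: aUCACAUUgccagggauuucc
mmu-miR-27a-3p: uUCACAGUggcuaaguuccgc
mmu-miR-24-3p: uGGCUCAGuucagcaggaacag

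A match to a seed, that is, the reverse complement of its 7 bases, was found in the longest annotated 3′ UTR (GENCODE M21) of 3 of the 10 genes, where 39.5% of 13547 genes tested with such a UTR hold a match to at least 1 of the 3. Ms4a2 holds 1 match to miR-27a, Mcpt8 1 to miR-24 and Hdc 1 to miR-23a, and their log2 fold changes were 0.45, 0.50 and -0.06. Each site is shown 5′ to 3′ as DNA with the match in capitals at its 3′ end. Their positions start at base 657 of the UTR in Ms4a2, base 52 in Mcpt8 and base 255 in Hdc.
Ms4a2 (chromosome 19): ggtacattcagggatACTGTGA
Mcpt8 (chromosome 14): ctggggtatggttgtCTGAGCC
Hdc (chromosome 2): tgctgttgagcttgtAATGTGA

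Fcer1a, Prss34 and Il1rl1, the 3 genes with the largest positive log2 fold changes, have no match to any of the 3 seeds in UTRs of 206, 163 and 3246 bases. The UTRs of most of the 10 are short, at 82 to 581 bases for 7 of them, beside a median of 1100 over the genes tested, and a match in a sequence is a description, not a shown site.

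Since GATA factors act in this lineage, the 250 bases before each start in the RefSeq promoter table were searched for AGATAA and TGATAA on both strands, counting overlapping matches. A match was found for 5 of the 10 genes, Fcer1a, Ms4a2, Prss34, Cpa3 and Il1rl1, or 6 of their 12 windows (50.0%), where 10.2% of the windows of genes tested and 16.6% of all RefSeq windows hold one. Ms4a2 has 3 matches, at 224, 37 and 11 bases before the start, and Cpa3 has 1, at 46. The windows of Fcer1g, Hdc, Mcpt8, Gzmb and Srgn hold none of these letters. The windows of Fcer1a, Prss34 and Il1rl1 are shown because these 3 genes had a log2 fold change of at least 1. They are written 5′ to 3′ on the strand of the gene, from GRCm38.p6, with the matches on either strand in capitals, and a match is a description of the letters only.

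Fcer1a, chr1:173227230-173227479, minus strand, with 1 match 92 bases before the start.
Fcer1a: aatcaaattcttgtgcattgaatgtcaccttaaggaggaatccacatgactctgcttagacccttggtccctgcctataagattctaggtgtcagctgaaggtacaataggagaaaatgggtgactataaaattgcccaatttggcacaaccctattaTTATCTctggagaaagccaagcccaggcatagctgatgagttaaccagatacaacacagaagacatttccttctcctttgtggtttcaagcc

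Prss34, chr17:25298144-25298393, plus strand, with 1 match 31 bases before the start.
Prss34: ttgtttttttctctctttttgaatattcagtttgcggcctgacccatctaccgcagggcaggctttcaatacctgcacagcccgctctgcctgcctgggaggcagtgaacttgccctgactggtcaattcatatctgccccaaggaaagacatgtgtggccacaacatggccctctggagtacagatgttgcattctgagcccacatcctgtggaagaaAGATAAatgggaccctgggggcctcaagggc

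Il1rl1, with 2 starts in the promoter table, both on the plus strand and inside the gene span given above, whose outermost start has no window in that table. The single windows of Hdc and Mcpt8 and the downstream window of Srgn likewise lie inside their gene spans. The window at chr1:40429320-40429569 has matches 217 and 80 bases before its start, and that at chr1:40439379-40439628 has 1 match 103 bases before its start.
Il1rl1, upstream start: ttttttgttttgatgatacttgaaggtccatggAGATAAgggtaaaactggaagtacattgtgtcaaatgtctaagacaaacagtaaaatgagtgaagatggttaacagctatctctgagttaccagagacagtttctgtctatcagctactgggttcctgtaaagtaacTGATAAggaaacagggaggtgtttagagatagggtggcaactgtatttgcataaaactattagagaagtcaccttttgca
Il1rl1, downstream start: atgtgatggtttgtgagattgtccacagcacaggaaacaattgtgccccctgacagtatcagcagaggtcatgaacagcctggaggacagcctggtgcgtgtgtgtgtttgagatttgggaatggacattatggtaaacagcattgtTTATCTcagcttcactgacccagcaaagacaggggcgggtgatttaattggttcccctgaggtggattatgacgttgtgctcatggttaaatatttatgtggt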

How the data were processed

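Per the labels, STAR and Cufflinks were run on mouse build mm10, whereas the study's supplementary methods list STAR, Cufflinks, DE-seq and hg19; the gene symbols are of mouse. Tool versions and the annotation release were not given in the sources used here. Although the deposited file is called FPKM, it holds a normalized signal: 100% of its values are whole multiples of 1 read within 0.001, as counts scaled by a library factor would be. Genotypes were compared by limma with a trend on log2(value + 1), two-sided, Benjamini-Hochberg adjusted over the 15662 genes with a mean of at least 1 (R 4.3.3, limma 3.58.1), with edgeR 4.0.16 and DESeq2 1.42.0 on the recovered reads. Fits were tested on simulated counts. The 10 genes and all lists were chosen with earlier results of these data known. Besides the 10 genes, the genes named from each pathway list were its 3 with the smallest p and its 2 with the highest mean, plus those at 0. Of the same picks for the marker lists only some are printed. Il5, Cd3e, Il33, Gata2, Mitf and Cebpa were named after their values were seen, as were Cd3d, Cd8a, Csf1r, Ly86, Ms4a6c and Prtn3. Symbols of list genes not in the table (Adgre1, Siglecf) were not analysed here. Pairs of hemoglobin entries hold identical values, so that the 16 erythroid markers hold 13 distinct profiles. Lengths and UTRs are from GENCODE M21.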

Additional observations from a re-analysis of the deposited data

How the results depend on the processing

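There were 20 alternatives: other pseudocounts (0.1, 0.5), filters (none, a mean of 5, a mean of 10) and scalings (TMM, median ratio, quantile), limma trendless or using array weights, edgeR, DESeq2, the replicate block, the erythroid covariate, and 6 fits that each left out a library. Of the 10 genes and of the genes in the 9 pathway lists 0 were called, apart from the following. Array weights called 5677 genes over all, 5 of the 10 and 50 of the pathway genes. The weights' estimation stopped before it converged, and the cause of these counts was not tested. DESeq2 called 125 genes, of them 2 in the pathway lists and 1 eosinophil marker, and the erythroid covariate 9 genes. With 1 library left out the counts ran from 1 to 531 genes over all, 0 to 2 of the 10 and 0 to 5 of the pathway genes, the highest each time without Mirc11-/- library 3, and the median of the 10 from 0.14 to 0.58.

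No value was had for low genes under the higher filters. Signs changed for the following genes. Gzma was at -0.64 and -0.060 with pseudocounts of 0.1 and 0.5 and at -1.69 with array weights, which also gave Oscar 0.32, Fcgr4 0.40 and Fcgr3 0.0754. By edgeR and DESeq2, Fcgr3 was at 0.071 and 0.071 and Serpinb9 at -0.0044 and -0.0040. With the erythroid covariate Fcer1g was at -0.13, Mcpt8 at -0.16, Kit at 0.12, Sigirr at 0.038 and Lmo2 at 0.057. With 1 library left out, the range was -0.016 to 0.44 for Fcer1g, -0.21 to 0.083 for Hdc, -0.42 to 0.83 for Gzmb, -0.54 to 0.97 for Gzma, -0.13 to 0.15 for Serpinb9, -0.25 to 0.039 for Kit, -0.028 to 0.16 for Ptgs1, -0.24 to 0.00024 for Csgalnact2, -0.58 to 0.042 for Fcgr4, -0.59 to 0.45 for Fcgr3, -0.11 to 0.12 for Clec4e and -0.0070 to 0.58 for Gzmm. The cause was not tested.

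Same-numbered libraries deviated from their group means with correlations of 0.066, -0.063 and 0.097 across genes, and libraries of unlike number with -0.133 to 0.0741. With 3 libraries a genotype, these values cannot settle whether the replicate numbers pair the libraries. With the number as a block, limma called 30 genes over all, 0 of the 10 and 0 of the pathway genes, and Fcer1a and Il1rl1 had an adjusted p of 0.117 each (Il1rl1 1.03, Fcer1a 2.63). Depth limits what can be said of Fcer1a and Gzmb, with 0 to 37 reads a library.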
